A study of Mus musculus with 4 samples.

Results

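The Gimap family (GTPases of immunity-associated proteins) was read from every probe set whose platform gene symbol was exactly Gimap1, Gimap3, Gimap4, Gimap5, Gimap6, Gimap7, Gimap8 or Gimap9. The 8 genes had 11 probe sets, of 45037 on the array and 34945 with a single gene symbol. Members were selected by symbol, but the family itself was chosen on log2 differences of this genotype comparison, in which Gimap8 and Gimap6 read lower, so its differences between genotypes are described here and carry no test. The cells were lymphoid-primed multipotent progenitors (LMPPs), early blood progenitors of the bone marrow with lymphoid and myeloid potential, sorted as lineage-negative, c-Kit+, Sca-1+ and Flt3-high from C57Bl/6 mice of 6 to 8 weeks. One group carried the Lyl1-null genotype, which removes a DNA-binding regulator of early blood cells related to Tal1, and the other was wild type (WT), with 2 arrays of amplified, biotin-labelled RNA per group. The labels do not say which part of Lyl1 the allele removes, whether animals were pooled, or whether the 2 arrays of each genotype stand for different mice, so the spread between arrays may be technical.

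Gimap proteins are GTPases of lymphocytes, and several of them sit on intracellular membranes. Their genes lie side by side in a single cluster, and the family is best known for keeping T and B lymphocytes alive: mice and rats without Gimap5 lose lymphocytes. In bone marrow, some members are already transcribed in multipotent progenitors, before a lineage is chosen.

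Values are log2 RMA expression values, in which 1 unit is a 2-fold step. Lyl1 itself read 5.14 and 10.32 on the arrays labelled Lyl1 KO replicate 1 and replicate 2, against 12.34 and 12.29 in WT. The second of these is 25.1% of the WT mean and goes against its label, and that array also read 14.26 for Xist, against 5.81 to 6.30 on the other 3, and 8.44 for the Y-linked Eif2s3y, against 10.07 to 10.15. It stood apart over all genes too, with 518 genes at least 2-fold from its nearest array, where the others had 42 to 78. Each KO-labelled array is therefore given on its own. Over both of them, Lyl1 had a difference of −4.58 (SE 1.57) and did not pass the limma test (limma adjusted p = 0.644). A lack of calls in the lists below thus does not show that no gene changed. The progenitor markers matched the labelled cell type: Flt3 read 11.80 and 11.26 on the KO-labelled arrays and 11.92 and 12.12 in WT, and all 12 marker genes of LMPPs on the array reached the expression filter. That filter is 5.69, the median of all probe-set means over the 4 arrays.

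The Gimap genes follow each other in the order Gimap8, Gimap9, Gimap4, Gimap6, Gimap7, Gimap1, Gimap5 and Gimap3 on mouse chromosome 6, in the RefSeq annotation of assembly GRCm38.p6. All 8 had an entry in the RefSeq promoter table, with 9 windows of 300 bases in all, running from 250 bases before to 50 bases after a transcription start. The windows of Gimap8, Gimap7 and Gimap6, whose probe sets had the largest differences among those above the filter, are shown beside that of Gimap9, whose difference was small. Capitals mark E-boxes, the letters CANNTG, to which Lyl1 binds as a dimer with an E protein. For Gimap8, which has 2 windows, the upstream one is shown.
Gimap8, chr6:48646984-48647283, plus strand: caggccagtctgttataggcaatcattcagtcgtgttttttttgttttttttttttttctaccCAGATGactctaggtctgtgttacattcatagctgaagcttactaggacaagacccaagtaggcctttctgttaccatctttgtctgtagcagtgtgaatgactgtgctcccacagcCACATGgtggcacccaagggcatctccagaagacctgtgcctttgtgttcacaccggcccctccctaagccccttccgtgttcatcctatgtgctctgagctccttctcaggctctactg
Gimap6, chr6:48708195-48708494, minus strand: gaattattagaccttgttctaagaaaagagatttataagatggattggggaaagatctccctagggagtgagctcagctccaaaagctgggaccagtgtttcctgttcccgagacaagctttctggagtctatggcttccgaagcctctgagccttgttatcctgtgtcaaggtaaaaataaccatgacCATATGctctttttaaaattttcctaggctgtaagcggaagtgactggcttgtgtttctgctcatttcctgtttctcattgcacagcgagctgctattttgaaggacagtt
Gimap7, chr6:48718371-48718670, plus strand: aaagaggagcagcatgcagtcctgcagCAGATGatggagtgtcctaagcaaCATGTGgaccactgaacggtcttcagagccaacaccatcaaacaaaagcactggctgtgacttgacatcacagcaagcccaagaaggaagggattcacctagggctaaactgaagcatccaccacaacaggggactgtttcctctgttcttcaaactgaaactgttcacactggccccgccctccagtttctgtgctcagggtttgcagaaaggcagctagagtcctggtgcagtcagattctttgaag
Gimap9, chr6:48675885-48676184, plus strand: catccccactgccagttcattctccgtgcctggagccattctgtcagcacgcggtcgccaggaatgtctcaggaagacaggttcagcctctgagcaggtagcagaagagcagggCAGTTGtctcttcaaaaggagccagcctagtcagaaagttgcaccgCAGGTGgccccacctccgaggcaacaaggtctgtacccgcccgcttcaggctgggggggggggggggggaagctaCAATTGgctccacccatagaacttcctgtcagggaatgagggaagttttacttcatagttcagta
E-boxes were found in 7 of the 9 Gimap windows, in a table where 72.3% of 32851 promoters hold at least 1. The 2 windows of Gimap8 overlap and share the same CACATG, so that stretch is counted in both. CANNTG reads the same on both strands. The Gimap8 window held CAGATG and CACATG, that of Gimap7 held CAGATG and CATGTG, that of Gimap6 held CATATG, and that of Gimap9 held CAGTTG as well as CAGGTG and CAATTG. No E-box lay in the windows of Gimap1 and Gimap3. The letters GATA occurred on either strand in 4 of 9 windows (57.9% of all promoters), GGAA, the core letters of ETS-factor sites, in 9 of 9 (96.0%), and TGTGGT, letters of RUNX sites, in 3 of 9 (16.8%). E-boxes were thus present both in windows of genes with large differences and in that of Gimap9.

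Most of the cluster read lower on both arrays labelled Lyl1 KO. Of the 11 probe sets, 9 were lower on both KO-labelled arrays than on both WT arrays, 0 were higher and 2 overlapped. Over all probe sets with 1 symbol, 16.9% were lower in this sense. Of the 9 Gimap probe sets that reached the filter, 8 were lower, where 25.4% of all probe sets above it were. At least 2-fold below the WT mean on both KO-labelled arrays at once were 4 of 11, against 0.172% of all probe sets. The median difference, Lyl1 KO minus WT, was −0.98 over the 11 probe sets and 0.05 over all probe sets with 1 symbol. It was −0.96 for the array labelled Lyl1 KO replicate 1 and −0.93 for the one labelled replicate 2, whose residual Lyl1 signal was the higher. Because the family was picked with this comparison known, these shares are read as a description only. In sorted populations, fewer cells that express a gene and less RNA per cell cannot be told apart.

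**Figure D1:**
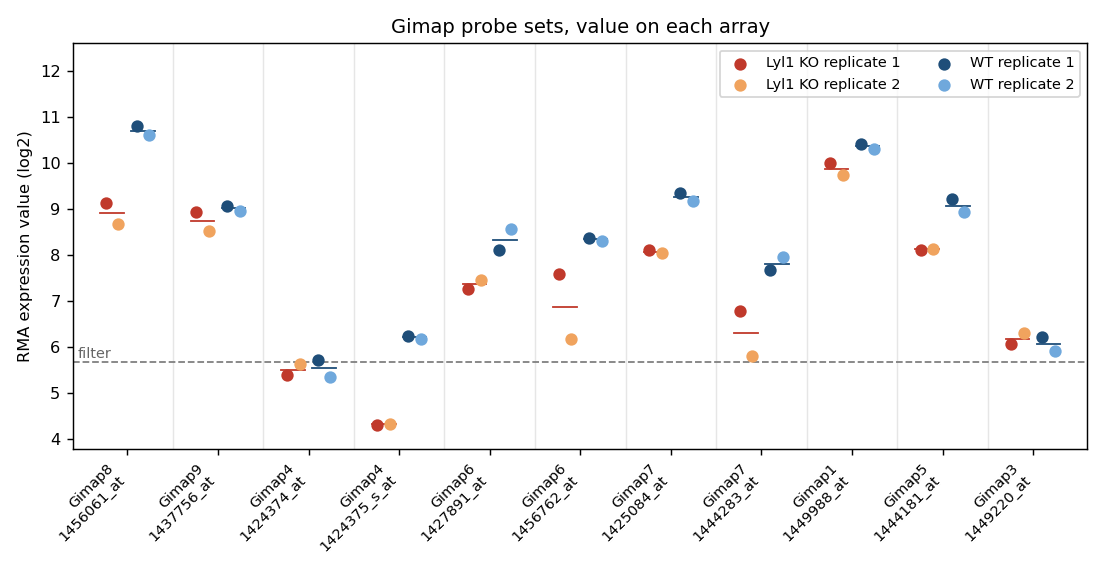
Log2 RMA values of the 11 Gimap probe sets, in chromosome order, on the 2 arrays labelled Lyl1 KO (red and orange, left of each pair) and the 2 WT arrays (dark and light blue). Short lines are group means and the dashed line is the expression filter of 5.69; 9 probe sets show both KO-labelled arrays below both WT arrays.

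Gimap8, which joins several GTP-binding domains in one protein, had the largest difference of the probe sets above the filter. It read 9.14 and 8.68 on the arrays labelled Lyl1 KO replicate 1 and replicate 2, against 10.80 and 10.61 in WT. The groups did not overlap, and the gap between the highest KO-labelled array and the lowest WT array was 1.47. The difference of −1.79 is a 3.47-fold lower level, with 33.8% of the WT mean on the array labelled replicate 1 and 24.6% on the one labelled replicate 2. Its mean was 8.91 ± 0.32 on the KO-labelled arrays and 10.70 ± 0.14 in WT (SD, n = 2 each).

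Gimap6 takes part in autophagy, where its protein binds Gabarapl2. Its brighter probe set, 1427891_at, read 7.26 and 7.47 on the KO-labelled arrays and 8.12 and 8.56 in WT, a difference of −0.98. The other, 1456762_at, read 7.59 and 6.17 on the KO-labelled arrays and 8.38 and 8.30 in WT, a difference of −1.46. Both probe sets kept the groups apart, but they ranked the KO-labelled arrays in opposite order. On the array labelled replicate 2 they differed from the WT mean by −0.87 and −2.17, so the size of the difference there depends on the probe set.

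Gimap7, whose human protein can stimulate GTP hydrolysis by another family member, showed the same pattern in both of its probe sets. Probe set 1425084_at read 8.10 and 8.04 on the KO-labelled arrays and 9.35 and 9.18 in WT, a difference of −1.19. Those values are 44.7% and 42.9% of the WT mean. Probe set 1444283_at read 6.80 and 5.81 on the KO-labelled arrays and 7.68 and 7.96 in WT, a difference of −1.52. The 2 KO-labelled arrays lay 0.06 apart in the first probe set and 0.99 apart in the second, where the array labelled replicate 2 was near the filter.

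Gimap5, the member whose loss causes lymphopenia in rats and mice, read 8.11 and 8.14 on the KO-labelled arrays and 9.21 and 8.94 in WT. The KO-labelled arrays were nearly equal, at 51.3% and 52.5% of the WT mean, and the difference was −0.95. Gimap1, which mature T and B cells need to survive in mice, had a smaller difference. It read 10.001 and 9.742 on the KO-labelled arrays and 10.42 and 10.31 in WT, a difference of −0.50, with a gap of 0.31 between the groups.

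Gimap9 and Gimap3 had the smallest differences of the genes above the filter. Gimap9 read 8.93 and 8.54 on the KO-labelled arrays and 9.06 and 8.97 in WT. Its groups were separated by 0.03 only, less than the 0.10 between the WT arrays. Gimap3, a close relative of Gimap5, read 6.07 and 6.31 on the KO-labelled arrays and 6.22 and 5.91 in WT. It overlapped between the groups, with a difference of 0.12, and lay close to the filter on every array, so a change there would be hard to see. Probe sequences were not used here, so hybridisation of the transcripts of close relatives to each other's probes cannot be told apart.

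Gimap4, which speeds the death of T cells, gave readings that disagreed between its probe sets, and neither reached the filter as a mean over the 4 arrays. Probe set 1424375_s_at read 4.32 and 4.34 on the KO-labelled arrays and 6.26 and 6.17 in WT, a difference of −1.88 and the largest of all 11. Probe set 1424374_at read 5.40 and 5.63 on the KO-labelled arrays and 5.73 and 5.36 in WT, and overlapped, with a difference of −0.03. The first was above the filter in WT alone. The suffix of the first marks probes that can match more than 1 transcript. Whether Gimap4 reads lower thus depends on the probe set, and the −1.88 is a difference against a level below the filter.

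**Figure D2:**
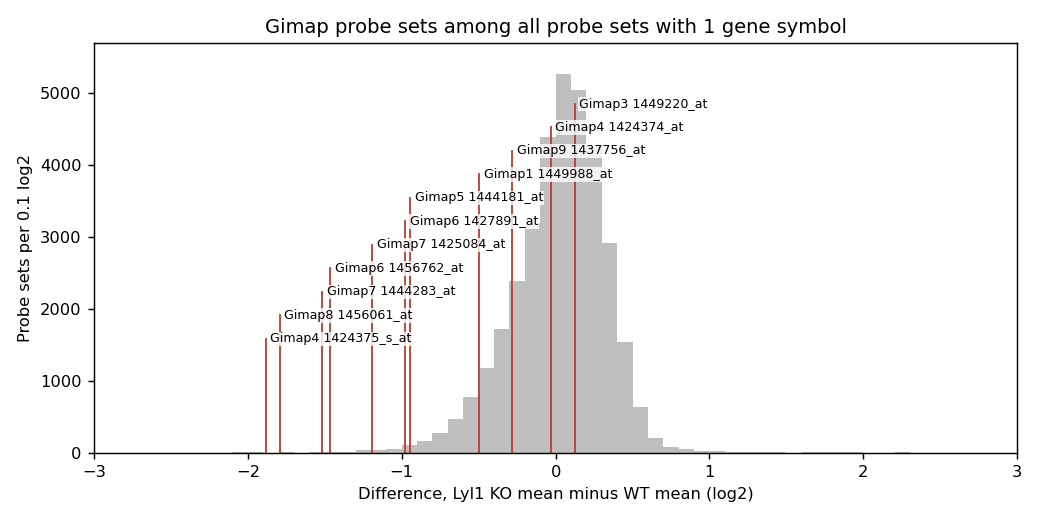
Number of probe sets with 1 gene symbol per 0.1 log2 of difference, Lyl1 KO mean minus WT mean (grey; 6 of 34945 lie outside the range of −3 to 3 shown), with the 11 Gimap probe sets as red lines at their own differences. Line heights carry no value; 7 Gimap probe sets lie at or beyond the −0.95 of Gimap5, in the sparse lower tail.

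The arrays of a group differed little in most of these probe sets. Between the WT arrays the median absolute difference over the 11 probe sets was 0.19 and the largest 0.44, in probe set 1427891_at of Gimap6. Between the KO-labelled arrays the median was 0.24 and the largest 1.42, in the other Gimap6 probe set. Over all probe sets with 1 symbol those medians were 0.14 between the WT arrays and 0.25 between the KO-labelled arrays.

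Some calls given for the lists come from the fit without the array labelled Lyl1 KO replicate 1, in which 14.8% of the 11196 genes tested passed, or from the fit without replicate 2, in which 0.196% did. The counts of list members called in those fits stand against these shares. The genes that flank the cluster were read next, since they lie in the same stretch of chromosome 6 and took no part in choosing the family. Of the 10 annotated genes on each side, 10 of 20 were on the array and 7 reached the filter. None of these passed the limma test (0 of 7 at an adjusted p under 0.05 and 0 at an unadjusted p under 0.05), in a comparison where 1 gene of 11196, or 0.00893%, passed and 766 had an unadjusted p under 0.05. Their median difference was −0.18, beside −0.05 over all genes tested, and 6 of 7 were negative. On the side of Gimap8, AI854703, a transcribed pseudogene next to it, read 6.71 and 6.20 on the KO-labelled arrays and 6.92 and 6.81 in WT (difference −0.41, SE 0.22, limma adjusted p = 0.644). The zinc-finger gene Zfp775 read 8.53 and 8.37 on the KO-labelled arrays and 8.92 and 8.59 in WT (difference −0.31, SE 0.19, limma adjusted p = 0.644). On the side of Gimap3, the membrane protein genes Tmem176b and Tmem176a had differences of −0.07 and −0.22. Every flanking difference was smaller in size than the −0.50 of Gimap1, while Gimap9, Gimap3 and the brighter Gimap4 probe set fell within the flanking range. Without the array labelled Lyl1 KO replicate 1, AI854703 passed at −0.67 (limma adjusted p = 0.0457, in a range of 0.0457 to 0.9999 over 11 alternatives). The difference between cluster and flank was not itself tested.

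**Figure D3:**
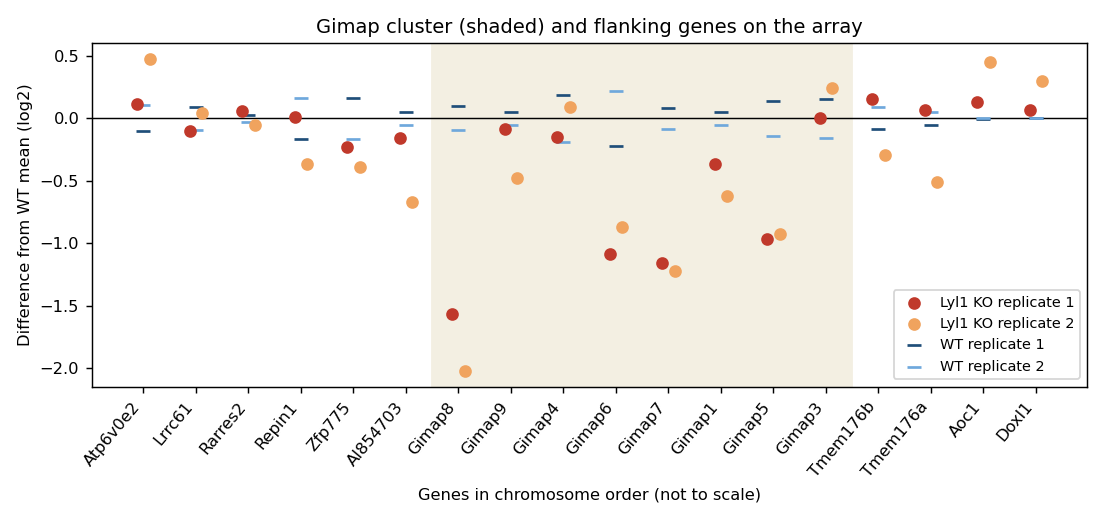
Difference from the WT mean in log2 for the 8 Gimap genes (shaded, brightest probe set of each) and the 10 flanking genes on the array, in chromosome order and not to distance. Red and orange dots are the arrays labelled Lyl1 KO replicate 1 and replicate 2 and blue dashes the WT arrays; Gimap8, Gimap6, Gimap7 and Gimap5 lie near or below −0.87 on both KO-labelled arrays, and no flanking gene does.

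Genes for proteins reported to bind Gimap family members were read as a list. It held Bcl2 and relatives that set the threshold for apoptosis, the autophagy proteins of the Gabarap and Map1lc3b kind, and the kinase Gsk3b. Of 10 genes, 9 were tested, 0 passed the limma test and 0 had an unadjusted p under 0.05. The median difference was −0.06, with 3 positive and 6 negative. Bcl2 read 10.70 and 10.39 on the KO-labelled arrays and 10.55 and 10.84 in WT. Gabarapl2, the partner of Gimap6, read 9.14 and 9.25 on the KO-labelled arrays and 9.15 and 9.36 in WT. Both overlapped between the groups. Gabarap had the smallest p of the list, with 9.85 and 8.21 on the KO-labelled arrays and 9.94 and 9.81 in WT (difference −0.85, SE 0.52, limma adjusted p = 0.644). That difference came from the array labelled Lyl1 KO replicate 2, and Gabarap passed without replicate 1 (−1.67). Gsk3b had a difference of 0.20 (SE 0.17, limma adjusted p = 0.690).

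Lymphocyte survival and quiescence genes, the programme in which Gimap genes are usually placed, went both ways. Of 20 genes, 16 were tested and 0 passed the limma test, with 5 at an unadjusted p under 0.05. The median difference was −0.15, with 6 positive and 10 negative. Tob1, a brake on T-cell proliferation, read 6.00 and 5.49 on the KO-labelled arrays and 6.53 and 6.67 in WT (difference −0.86, SE 0.22, limma adjusted p = 0.644). Il7r, the interleukin-7 receptor that sustains early lymphocytes, read 10.25 and 10.03 on the KO-labelled arrays and 9.37 and 9.62 in WT (difference 0.65, SE 0.18, limma adjusted p = 0.644). Il7r and Gimap8 thus had opposite signs. Without the array labelled Lyl1 KO replicate 1, 3 of the 16 passed, all downward (Tob1, Tsc1 and Slfn2), against 14.8% of all genes in that fit.

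Other immune GTPases, the interferon-inducible IRG, GBP and Mx proteins that act against intracellular pathogens, were read beside the Gimap genes. Of 18 genes, 11 were tested and 0 passed the limma test, with 2 at an unadjusted p under 0.05. The median difference was −0.23, with 3 positive and 8 negative. Iigp1 read 7.54 and 7.40 on the KO-labelled arrays and 8.60 and 8.92 in WT (difference −1.28, SE 0.19, limma adjusted p = 0.284). Mx1 read 5.40 and 5.87 on the KO-labelled arrays and 6.27 and 7.07 in WT (difference −1.03, SE 0.32, limma adjusted p = 0.644). Its KO-labelled mean of 5.64 lay below the filter, so Mx1 was tested only through the WT arrays, where it was high. Gbp6 had opposite signs on the KO-labelled arrays, differing from the WT mean by −0.37 on the one labelled replicate 1 and by 1.5 on the one labelled replicate 2. Without replicate 1, Iigp1 passed downward and Gbp6 upward, 2 of 11 against 14.8% of all genes.

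Gimap genes are also transcribed in mature lymphocytes and in endothelium, so markers of the cells that a progenitor sort could carry were read. Of 24 mature T and NK cell markers, 22 were on the array, and 11 were below the filter on every array, among them Cd3d, Cd3g and Cd8b1. Others of the list, such as Cd3e, Cd4, Cd8a and Zap70, were above it on every array. Of 10 tested, 0 passed the limma test (1 at an unadjusted p under 0.05). The mean level over the 22 was 5.97 and 6.08 on the KO-labelled arrays and 5.84 and 5.87 in WT. Its part in the Gimap differences was not tested. Klrd1, a natural killer receptor gene, had a difference of −0.76 (SE 0.16, limma adjusted p = 0.574), and the T-cell adaptor gene Lat one of 0.54 (SE 0.22, limma adjusted p = 0.644). Ccl5, a chemokine gene of T and NK cells, was lower on both KO-labelled arrays, with differences of −0.28 and −1.09. Klrd1 and Ccl5 were the 2 negative genes of the 10 tested. The other 8 were positive, and the median difference was 0.21. Among 14 B cell markers on the array, 0 of 10 tested passed (2 at an unadjusted p under 0.05), with Blk at 0.71 and Vpreb1 at 0.56. The median difference was 0.11, with 7 positive and 3 negative (Igll1 at −0.50, Bank1 at −0.25 and Ighm at −0.23). The mean level over the 14 was 7.02 and 6.99 on the KO-labelled arrays and 6.80 and 6.95 in WT. Without the array labelled Lyl1 KO replicate 1, 4 T and NK cell markers passed (Cd8a and Lat upward, Ccl5 and Klrd1 downward), as did Blk upward, 4 of 10 and 1 of 10 against 14.8% of all genes in that fit.

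Endothelial markers went both ways. Of 15, 8 were tested, 0 passed the limma test and 3 had an unadjusted p under 0.05. The median difference was −0.10, with 3 positive and 5 negative. Kdr read 6.96 and 7.06 on the KO-labelled arrays and 6.84 and 6.66 in WT, a difference of 0.26, while Egfl7 and Cldn5 read lower on both KO-labelled arrays. Egfl7, a secreted protein of endothelium and blood progenitors, read 10.49 and 9.90 on the KO-labelled arrays and 11.70 and 11.73 in WT (difference −1.52, SE 0.24, limma adjusted p = 0.309). The tight-junction gene Cldn5 read 5.65 and 5.77 on the KO-labelled arrays and 7.20 and 6.59 in WT (difference −1.19, SE 0.24, limma adjusted p = 0.562). Robo4 read 6.45 and 6.25 on the KO-labelled arrays and 6.82 and 6.81 in WT, a difference of −0.47. Of the 15, 6 were below the filter on every array (Cdh5, Tek, Tie1, Emcn, Vwf and Ecscr), while others of the list, such as Kdr, Esam, Eng and Pecam1, were above it on every array. The mean level over the 15 was 5.97 and 5.92 on the KO-labelled arrays and 6.13 and 6.11 in WT, and the part of endothelial RNA in the Gimap values was not tested beyond this. Without the array labelled Lyl1 KO replicate 1, Egfl7 and Cldn5 passed.

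Granulocyte markers had higher values in part. Of 8 tested, 0 passed the limma test and 6 had an unadjusted p under 0.05. The median difference was 0.72, with 4 positive and 4 negative. The negative ones were Mpo (−1.01), Ctsg (−0.53), Prtn3 (−0.11) and Elane (−0.02). The granule genes Ngp (difference 1.997, SE 0.22, limma adjusted p = 0.191) and S100a8 (1.64, SE 0.20, limma adjusted p = 0.210) led the list. Their mean level over 13 genes was 7.82 and 7.60 on the KO-labelled arrays and 7.09 and 6.99 in WT, and its part in the Gimap differences was not tested. Without the array labelled Lyl1 KO replicate 2, the differences were 2.06 for Ngp, 1.76 for Ltf and 1.77 for S100a8. Without replicate 1 they were 1.93, 1.18 and 1.52, with Camp at 1.67 and Mpo at −1.36. Ltf read 6.77 and 6.19 on the KO-labelled arrays and 4.93 and 5.10 in WT. Its WT values lay below the filter, so it was tested only through the KO-labelled arrays, where it was high. Erythroid and megakaryocyte markers had 0 of 8 past the limma test (2 at an unadjusted p under 0.05). The median difference was −0.07, with 2 positive and 6 negative. Pf4 was at −0.99 (−1.18 without replicate 1) and Car1 at −1.14. Itga2b went the other way, with 9.18 and 9.02 on the KO-labelled arrays and 8.70 and 8.73 in WT. Alas2 had a difference of 0.63, but its groups overlapped (5.91 and 6.63 on the KO-labelled arrays, 6.22 and 5.07 in WT). The WT mean of Alas2, 5.64, lay below the filter, so it was tested only through the KO-labelled arrays. The Car1 difference rested on which WT array was used, with −0.44 without WT replicate 1 and −1.84 without WT replicate 2. The LMPP markers had 0 of 12 past it (5 at an unadjusted p under 0.05), with a median of −0.43, Cd48 at −1.03 and Rag2 at 0.73. That median was −0.11 on the array labelled Lyl1 KO replicate 1 and −0.72 on the one labelled replicate 2. The split was wider than the −0.96 and −0.87 of the 7 Gimap genes above the filter. Single Gimap probe sets lay up to 1.42 apart between these arrays. Without replicate 1, 8 of the 12 LMPP markers passed, 7 of them downward, against 14.8% of all genes.

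**Figure D4:**
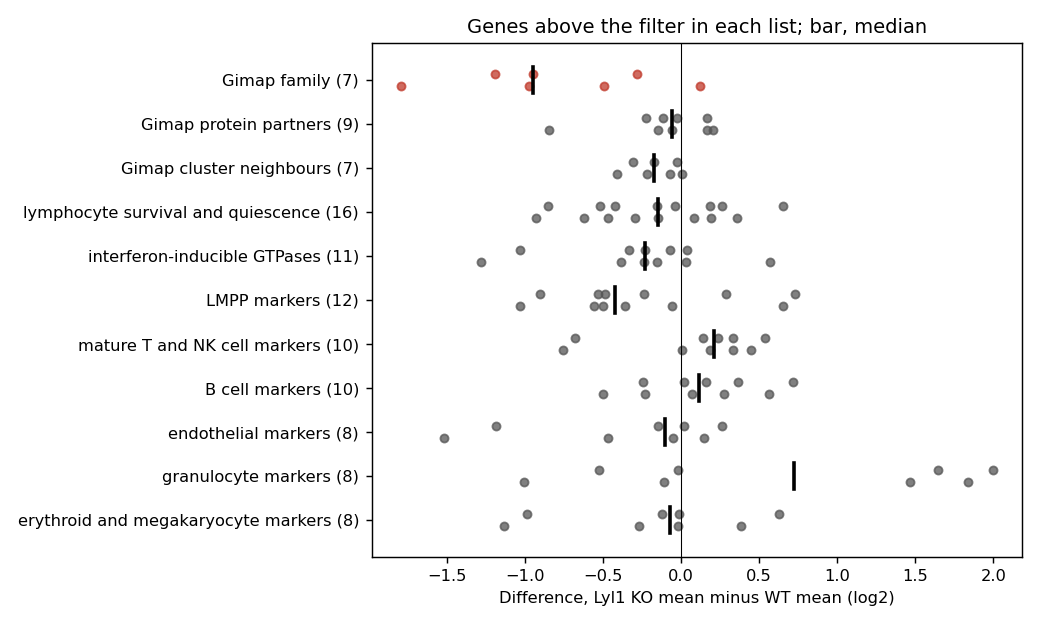
Difference in log2, Lyl1 KO mean minus WT mean, of each gene above the filter in the Gimap family (red, 7 genes) and in the other lists (grey, number of genes in brackets); black bars are medians. The Gimap median lies at −0.95, beside −0.05 over all 11196 genes tested, and granulocyte markers fall into a higher and a lower part.

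The genes with the profile most like Gimap8 over the 4 arrays, by root mean square difference of log2 values centred on each gene, were Mb21d2 (0.15), Egfl7 (0.17) and the receptor phosphatase gene Ptprv (0.19). Mb21d2 read 5.46 and 4.94 on the KO-labelled arrays and 6.81 and 6.60 in WT. Its KO-labelled values lay below the filter, so it could reach the filter as a mean only through the WT arrays, where it was high. Its likeness to Gimap8 thus rests on a difference against a level below the filter. Ptprv read 7.17 and 6.53 on the KO-labelled arrays and 8.61 and 8.90 in WT. Among the family genes above the filter, read from the brightest probe set of each, the nearest to Gimap8 was Gimap7, at 0.33. The nearest to Gimap6 were the complement regulator gene Cd59a (0.14), Reck (0.15), an inhibitor of matrix proteases, and the lymphocyte adaptor gene Lax1 (0.15). In the same way, the nearest to Gimap6 in the family were Gimap7 and Gimap5, both at 0.26. With 4 arrays these likenesses are a description of how the values fall.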

How the data were processed

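Expression arrays of sorted LMPPs were available for 4 samples, 2 labelled Lyl1-null and 2 wild type, each on its own array. Per the submitters' processing notes, the authors' deposited log2 values were made with RMA, which corrects background, equalises arrays and summarises probes. The sources used here give neither its version nor the arrays it was run with, and the deposited columns differ in SD (2.44 and 2.34 in the Lyl1 KO columns, 2.48 and 2.47 in WT), so they were not on one common distribution. The number of arrays limits the precision.

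Values were used as deposited. Probe sets with several symbols (932) or none listed (9160) were left out. Gene identifiers of 34741 probe sets matched RefSeq genes of GRCm38.p6, used for names, gene order and promoter sequences, and 0 symbols changed. Each gene was read from its probe set with the highest mean, and 11196 of 18193 genes whose mean reached 5.69 were tested with limma 3.58.1 under R 4.3.3 (lmFit, eBayes, two-sided, Benjamini-Hochberg at 0.05). All adjusted p-values are from limma over all genes tested. SDs and SEs are on the log2 scale.

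The family and the gene lists were chosen with earlier results of these data known. Named were all Gimap probe sets, Lyl1, Xist, up to 4 called members of each list, or 2 by smallest p where none was called, and the 3 genes nearest to Gimap8 and to Gimap6. Others (among them Bcl2, Gabarapl2, Flt3, Ccl5, Robo4, Gbp6, Tmem176a, Tmem176b, genes below the filter and genes called without 1 array) were named after their values were seen. The limma fit was tested on simulated data with known differences. Deviations from group means correlated at −0.41 between arrays with the same replicate number, so the numbers were not taken to pair the samples. Alternatives changed the filter, probe sets, normalization, prior, block and the arrays included.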

Additional observations from a re-analysis of the deposited data

How the results depend on the processing

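The median difference over the 11 probe sets was −0.83 after quantile normalization, −1.05 after median centring and −0.95 with a mean per gene, and ran from −1.11 to −0.93 with 1 array left out. The filters left it at −0.98. Above the filter, 8 probe sets had both KO-labelled arrays below both WT arrays. That count was 9 without a filter, 7 with the stricter filter (the 70th percentile, 7.25) and 7 after quantile normalization. It was 8 without each array in turn, but there it could not fall, because groups that are apart stay apart when an array is removed. Over its alternatives Gimap8 ran from −2.02 to −1.56, Gimap7 from −1.35 to −1.05, Gimap6 from −1.22 to −0.76, Gimap5 from −1.09 to −0.80 and Gimap1 from −0.62 to −0.37. Gimap9 ran from −0.48 to −0.08, Gimap3 from −0.03 to 0.28 and Gimap4 from −0.96 (mean of its probe sets) to 0.16, so Gimap3 and Gimap4 have no stable sign.

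The 1 gene called over the whole array was Ctse. The count was 4 without a filter, 0 with the mean of probe sets, 2 after quantile normalization, 2 after median centring, 4 with a trended prior, 3 with the replicate number as a block, and 1 to 1652 with 1 array left out (1652 without the array labelled Lyl1 KO replicate 1, 22 without replicate 2). With the crossed block, in which replicate 1 of each group is paired with replicate 2 of the other and which was added after seeing the data, it was 1. Members of the other lists called numbered 0, also with either block, and 0 to 28 with 1 array left out (28 without the array labelled Lyl1 KO replicate 1, 3 without replicate 2). AI854703 turned to 0.025 with the mean of its probe sets. Leaving out 1 array leaves a lone array in its group, which limma then assumes to vary like the other group. The causes of these changes were not tested. With 2 arrays per group, and with the array labelled Lyl1 KO replicate 2 at 25.1% of the WT Lyl1 level, small differences such as those of Gimap9 and Gimap3 cannot be resolved.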
